A study of Mus musculus with 28 samples.

Results

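FoxA1 binding events seen at 24 h and at no other time of an induction course were 9171 of the 35134 events (26.1%) listed at 24 h with an anti-FoxA1 antibody. They were selected on the measured lists themselves: an event was a member if no event of the anti-FoxA1 lists at 0, 6, 12 or 48 h lay within 100 bp of it. Membership and the 24 h score are therefore descriptions here, and nothing is tested on them. The readouts the choice did not use are a second time course with an antibody against the FLAG tag, the combined FoxA1 list at 24 h, the lists of 3 other Forkhead factors, the position of the events on the gene map and the sequence under those that fall in promoters.

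FoxA1 is a Forkhead transcription factor of endoderm and of the tissues that derive from it, such as liver, lung and pancreas. Its winged helix domain resembles that of a linker histone, and it can bind its sites on nucleosomal DNA, for which it is called a pioneer factor. It recognises a short sequence with the core TGTTTAC and close variants of it, which most Forkhead proteins share. In embryonic stem (ES) cells the endodermal programme is largely silent, so a FoxA1 transgene meets chromatin there that the factor does not normally act on.

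Binding was mapped by ChIP-exo. Here an exonuclease digests the immunoprecipitated fragments from one end until it meets the crosslinked protein. Each listed event is a single base position given by the event caller. All cells were MC1 mouse ES cells of strain 129S6/SvEvTac, and every factor carried a C-terminal His6-FLAG tag under a doxycycline (Dox) repressible construct at the Rosa26 locus with a puromycin resistance gene. Cells were held in LIF, Dox and puromycin, then washed free of Dox and grown in differentiation medium with serum for the stated hours, so the hours count both transgene induction and time out of ES cell medium. The anti-FoxA1 course and the anti-FLAG course each had 1 library of the MC1(+iFoxA1) line at 0, 6, 12, 24 and 48 h. The headers of the combined FoxA1 list and of the FoxC1, FoxL2 and FoxP3 lists name the factor and no library. The combined FoxA1 list was taken to belong to 3 libraries of 24 h that the labels give apart from the courses. Of these, 2 used anti-FLAG and 1 anti-FoxA1. Each of the other 3 lists was taken to belong to 2 anti-FLAG libraries of 24 h from its own line. Whether a library of the courses entered the combined FoxA1 list is not stated. No clone or culture is named, so each line is taken as 1 source of cells, and the files hold no expression with which the cell type could be checked. An empty control line, MC1(null), was sampled at 0 h and has no list used here.

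With 1 library per time point no test between times was possible. A place without an event can be unbound, under the caller's threshold or called over 100 bp away, and these cannot be told apart from the lists. The anti-FoxA1 lists held 15, 86, 8345, 35134 and 41726 events at 0, 6, 12, 24 and 48 h, and the anti-FLAG lists 20, 17, 1656, 15984 and 13899. The combined FoxA1 list held 32948, and the FoxC1, FoxL2 and FoxP3 lists 1112, 7244 and 4385. The files give no reads or totals, so the depth behind a list is unknown, and the 95% intervals on shares below (Wilson for a share, Newcombe for a difference) cover counting error over events only. Neighbouring events share a fragment pool and a library and are not independent.

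The sequences under the events that fall upstream of genes show what FoxA1 was called on. Each run below is the 101 bases centred on one event, read 5′ to 3′ on the + strand of the reference, from RefSeq's promoter sequences on GRCm38.p6, with a Forkhead motif in capitals. The 4 motifs searched were TGTTTAC or TATTTAC or TGTTTGC or TGTTGAC on both strands, so that the reverse complement of the first reads GTAAACA. The first 6 runs are events seen only at 24 h that hold a motif, near 9430037G07Rik (chr9:88599358-88599458), Mgat5 (chr1:127204770-127204870), Reg4 (chr3:98222022-98222122), Slc35g2 (chr9:100571128-100571228), C330024D21Rik (chr5:67463725-67463825) and Gm39227 (chr8:94171792-94171892).
9430037G07Rik: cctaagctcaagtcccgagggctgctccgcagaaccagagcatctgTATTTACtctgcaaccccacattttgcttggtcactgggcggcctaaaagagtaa
Mgat5: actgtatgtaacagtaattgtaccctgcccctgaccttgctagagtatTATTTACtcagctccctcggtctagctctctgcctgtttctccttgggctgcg
Reg4: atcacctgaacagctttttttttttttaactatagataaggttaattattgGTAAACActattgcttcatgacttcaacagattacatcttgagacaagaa
Slc35g2: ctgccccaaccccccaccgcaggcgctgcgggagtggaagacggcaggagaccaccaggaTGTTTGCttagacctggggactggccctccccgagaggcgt
C330024D21Rik: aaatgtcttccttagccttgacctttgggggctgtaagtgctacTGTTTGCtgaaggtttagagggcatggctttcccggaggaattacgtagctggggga
Gm39227: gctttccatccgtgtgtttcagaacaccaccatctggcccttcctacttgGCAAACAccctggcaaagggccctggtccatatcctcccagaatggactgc

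The next runs are events seen only at 24 h with none of the 4 motifs, at Platr8 (chr2:109913372-109913472), a noncoding transcript named for its link to pluripotency, and Nanos2 (chr7:18987289-18987389), an RNA-binding protein of male germ cells. They are shown because other FoxA1 lists had an event there although the letters searched are not in the window.
Platr8: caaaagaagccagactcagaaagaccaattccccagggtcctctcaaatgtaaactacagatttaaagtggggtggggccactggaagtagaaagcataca
Nanos2: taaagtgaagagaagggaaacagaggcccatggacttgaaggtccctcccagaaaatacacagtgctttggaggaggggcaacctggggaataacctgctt

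The last runs are events kept at 48 h, shown for comparison, at Gm35541 (chr5:147753269-147753369), Pml (chr9:58249874-58249974), which builds nuclear bodies, and Etv5 (chr16:22439693-22439793), an ETS factor of FGF signalling. Each of them holds a motif. Among events with the whole window before a gene start, 62 of 100 kept ones held a motif, and 10 of 27 seen only at 24 h.
Gm35541: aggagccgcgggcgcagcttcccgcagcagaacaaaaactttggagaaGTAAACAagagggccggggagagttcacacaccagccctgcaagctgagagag
Pml: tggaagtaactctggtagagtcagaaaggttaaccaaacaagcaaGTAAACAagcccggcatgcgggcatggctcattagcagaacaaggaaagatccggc
Etv5: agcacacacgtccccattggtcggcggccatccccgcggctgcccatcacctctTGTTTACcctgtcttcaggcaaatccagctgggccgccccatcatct

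Upstream of Mgat5, which branches N-glycans, the event seen only at 24 h scored 67 and stood 1 bp from its motif, 166 bp before the start of the gene. The combined FoxA1 list had an event of score 66 at 9 bp from it, while the nearest anti-FLAG event of 24 h lay 21473 bp away. At C330024D21Rik the event scored 46, its motif was 3 bp away and the combined list had an event of score 98 at 3 bp. The events at 9430037G07Rik (score 68), Reg4, a secreted lectin of the gut (score 55), Slc35g2 (score 52) and Gm39227 (score 44) stood 1, 4, 13 and 3 bp from a motif, and none of them had an event of the anti-FLAG lists of 24 and 48 h or of the combined list within 100 bp. At Platr8 the event scored 87, with an anti-FLAG event of score 67 and a combined event of score 182 both at 2 bp, and a 48 h event 173 bp away. At Nanos2 it scored 52, with a combined event of score 79 at 8 bp and a 48 h event 130 bp away. The kept event at Pml scored 403 at 24 h and 317 at 48 h and had events of 174 and 56 in the anti-FLAG lists of 24 and 48 h. At Gm35541 the kept event scored 1000 at both times, with anti-FLAG events of 103 and 140. The kept event at Etv5 scored 156, with a combined event of score 226 at 9 bp. Its nearest anti-FLAG events of 24 and 48 h lay 873 and 2579 bp away. Of the 8 printed events seen only at 24 h, 4 had a match within 100 bp in these other FoxA1 lists and 4 had none. Platr8 and Nanos2 were printed for such a match, so these counts do not estimate a share. Of all 9171, 30.4% had an event of the anti-FLAG list at 24 h or of the combined list. The scores of the 8 ran from 44 to 87.

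A Forkhead motif lay within 50 bp of 31 of the 80 events seen only at 24 h whose window fell whole inside a promoter sequence (38.75%, interval 28.8 to 49.7%). Of the events kept at 48 h, 153 of 257 had one (59.5%, 53.4 to 65.4%), a difference of -20.8 percentage points (-32.3 to -8.24). In the central window of all 32851 promoter sequences the share was 4.61%. Both sets of FoxA1 events thus carried the motif more often than promoters at large, and the events seen only at 24 h less often than the kept ones in this small sample. GC content was 49.8% in the windows of the first set, 52.2% in the kept set and 54.0% in all promoters. Where a motif was present it stood near the called base, at a median of 3 bp for the events seen only at 24 h and 2 bp for the kept ones. Of the 31 with a motif, 26 (83.9%) had it within 20 bp, against 143 of 153 (93.5%). Whether the event caller used sequence to place events is not stated. Nearness to a motif and the excess over promoters are therefore descriptions only.

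Events seen only at 24 h with an event of another time 101 to 500 bp away held a motif in 2 of 14 windows (14.3%, 4.01 to 39.9%), and those farther away in 29 of 66 (43.9%, 32.6 to 55.9%). TGTTTAC itself was in 12 windows of the 80 and in 65 of the 257 kept ones (25.3%). Among the 53 events seen only at 24 h with no anti-FLAG or combined event at 24 h, 20 had a motif (37.7%, 25.9 to 51.2%), close to the 11 of 27 with such an event (40.7%, 24.5 to 59.3%). The 2 with an anti-FLAG event lacked the 4 motifs. These windows are promoter events alone, and the motif content of the other events was not analysed here.

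**Figure D1:**
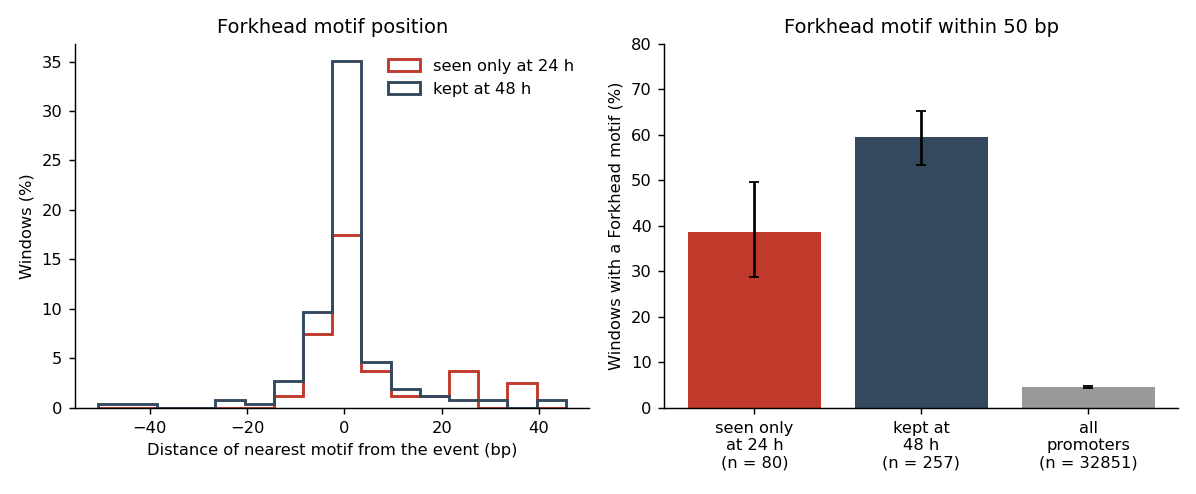
Left, distance in bp from the event to the nearest Forkhead motif, as the percent of all windows in bins of 6 bp. Right, percent of 101 bp promoter windows with a motif, with Wilson 95% intervals; red, seen only at 24 h (38.75% of 80); dark, kept at 48 h (59.5% of 257); grey, all promoters (4.61% of 32851).

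By score the events seen only at 24 h were the weak end of the 24 h list. The score is the event caller's own number, runs from 43 to 1000 in these lists and has no stated scale. Their median was 55 (quartiles 48 and 73), against 112 (67 and 212) for the 25307 events kept at 48 h. In the lowest decile of the list, scores of 43 to 48, 58.2% of events were seen only at 24 h. In the fifth, scores of 73 to 86, it was 28.3%, and in the highest, 326 to 1000, it was 0.773%, or 27 of 3491 events. A score of 100 or more was reached by 899 of them (9.80%), against 55.3% of the kept events.

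The few strong ones were mostly next to an event of another time. Of the 39 with a score of at least 300, 35 (89.7%) lay 101 to 500 bp from an event of another anti-FoxA1 time point, 33 of them within 200 bp. Of the 127 with at least 200 it was 95 (74.8%), and of all 9171 it was 1943 (21.2%). A kept 24 h event lay within 500 bp of 1347 of these 1943 (69.3%), so many were a further position beside a place that stayed on the list. The median score was 61 for these 1943 and 55 for the 7228 that lay over 500 bp from every other time.

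Across the limit of the rule the median score of all 24 h events went from 92.5 to 86.5 and then to 118. These values are for the 264 events at 91 to 100 bp from a 48 h event, the 222 at 101 to 110 bp and the 225 at 111 to 120 bp. The 264 are just outside the set. The 176 members at 101 to 110 bp had a median of 77 with the highest at 1000, and the 168 members at 111 to 120 bp one of 94.5. The median distance of a member to the nearest 48 h event was 6372 bp (quartiles 890 and 26976), and that of a kept event 5 bp (1 and 16). No 24 h event of any kind lay within 5 kb of 55.0% of the members, close to the 51.9% of kept events.

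**Figure D2:**
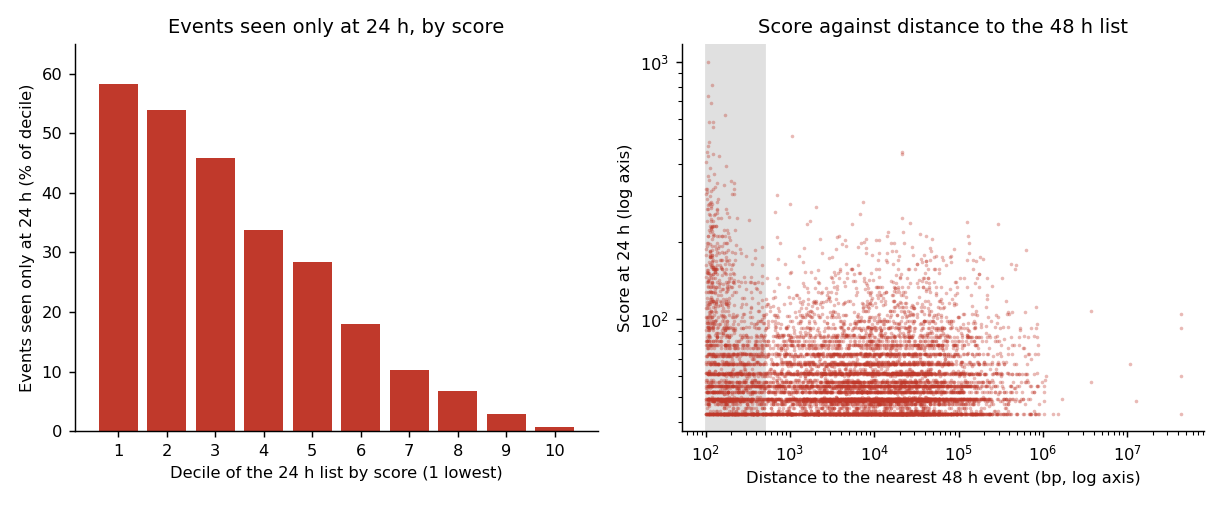
Left, percent of the 24 h events in each decile of the list by score that were seen only at 24 h, falling from 58.2% to 0.773%. Right, score at 24 h against the distance in bp to the nearest 48 h event for each event seen only at 24 h (both axes logarithmic); the grey band marks 100 to 500 bp, where 35 of the 39 scores of at least 300 had an event of another time.

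The 12 highest scores show this. The first, with the ceiling score of 1000, lay at base 5072461 of chromosome 1, 2162 bp outside Rgs20, a regulator of G protein signalling. A 12 h event of score 223 was 150 bp and a 48 h event of score 364 was 106 bp from it, and the anti-FLAG course had an event of score 264 at its very base at 12 h and events of 1000 and 649 at 42 bp at 24 and 48 h. The nearest event of the combined list was 13720 bp away. Inside Wars, the tryptophanyl-tRNA synthetase, an event scored 811 with a 48 h event of score 329 at 119 bp, and inside the lncRNA Gm39128 one scored 733 with a 48 h event of score 681 at 106 bp. Near Arf6, a GTPase of membrane traffic, an event of score 690 stood 116 bp from a 48 h event at the ceiling, and inside Prkce, a protein kinase C, one of score 618 stood 171 bp from another. Of the 12, 11 had a 48 h event 104 to 171 bp away, 7 an anti-FLAG event at 24 h within 100 bp and 8 one at 48 h. The combined list had an event within 100 bp of 5 of the 12.

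The others of this kind were inside Tnfrsf21, a death receptor (score 584), Corin, which activates natriuretic peptide (584), Camkmt, a calmodulin methyltransferase (556), and Tmcc3 (469), beside Hs3st3b1, a heparan sulfate sulfotransferase (489), and inside the lncRNA 4931408D14Rik next to Ide, the insulin-degrading enzyme (447). At Corin the 24 h event lay 1 bp from an anti-FLAG event of 48 h with a score of 351, although the nearest anti-FoxA1 event of 48 h, at the ceiling, was 110 bp off. At Hs3st3b1 the anti-FLAG list had 405 at 7 bp at 24 h and 91 at 8 bp at 48 h. So for several of these places the anti-FLAG course still listed the same position at 48 h.

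Only 1 of the 12 had no 48 h event within 500 bp, and it was in Ddx55, a DEAD-box RNA helicase of chromosome 5. The run of 7 events there was the longest of 12 runs of at least 3 members with gaps of at most 500 bp, which together held 41 events and were looked for after the values were seen. The 7 lay at bases 124563628 to 124565846, a span of 2219 bp inside the gene (124552832 to 124569660), with scores of 186, 85, 302, 515, 189, 234 and 273 in order of position. A further 24 h event of score 131 between the first and second of them, and one of 145 just before the run, were within 100 bp of 48 h events of scores 75 and 200. The anti-FLAG list at 24 h had 8 events across the run and its first edge, with scores of 254 to 711, and 6 of the 7 members had one within 100 bp. At 48 h both antibodies listed events at the first end of the stretch alone, anti-FLAG with scores of 315 and 104. The combined list had a single event of score 147, at base 124563270, before the run. Thus both antibodies of the time course listed the row of events at 24 h, and neither the 48 h lists nor the combined list held it.

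**Figure D3:**
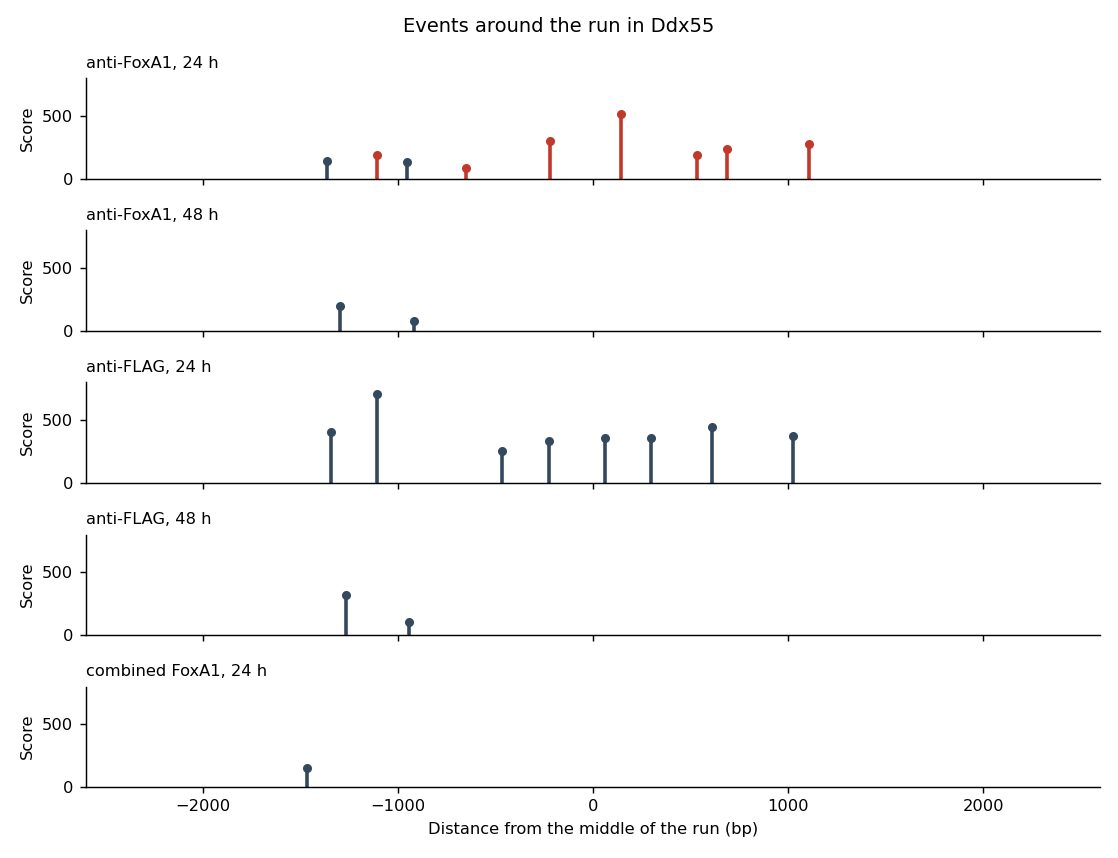
Score of each event against its distance in bp from the middle of the run in Ddx55, in the 5 lists named over the panels; red, events seen only at 24 h; dark, all others. The 7 red events, scores 85 to 515, stand across a stretch where the anti-FLAG list at 24 h has events of 254 to 711 and the 48 h lists have events at the left end alone.

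Another run stood far from any 48 h event. In the lncRNA Gm39793 on chromosome 2, 3 events at bases 33933969, 33934120 and 33934360 scored 247, 446 and 437. The nearest 48 h event was 21132 bp from the first of them, and the anti-FLAG list at 24 h had 1 event of score 100, 100 bp from the second. A run of 4 near Cdnf, a neurotrophic factor (scores 43 to 85), had an anti-FLAG event at 24 h beside 3 of its events. Of the 12 runs, 6 had a member with an anti-FLAG event at 24 h, and 10 were over 500 bp from every 48 h event. The other 9 runs were of 3 events each with scores of 43 to 114, among them 1 beside Hes1, the Notch target, at 67785 bp, and 1 at 25093 bp from Foxp2.

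The anti-FLAG course gave a second look at the same line and labelled times, and whether it shares chromatin with the first is not stated. An anti-FLAG event at 24 h lay within 100 bp of 1052 of the 9171 events (11.5%, 10.8 to 12.1%), against 51.2% of the kept ones. At 48 h the shares were 4.98% (4.56 to 5.45%, 457 events) and 44.9%, and at 12 h 0.174% and 7.22%. No event seen only at 24 h had an anti-FLAG event at 0 or 6 h. The combined FoxA1 list had an event at 2158 of them (23.5%, 22.7 to 24.4%), against 63.0%. None of the anti-FLAG lists at 0, 6, 12, 24 and 48 h and the combined list had an event at 67.9% of them, against 21.5% of the kept events.

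Since scores differed so much, the kept events were also weighted to the score deciles of the events seen only at 24 h. The kept share then fell to 23.3% for the anti-FLAG list at 24 h, 22.3% for that at 48 h and 45.3% for the combined list. The differences shrank to -11.8 percentage points (-12.7 to -10.8), -17.3 (-18.1 to -16.4) and -21.8 (-23.1 to -20.5). In the lowest decile the combined list had an event at 17.4% of the events seen only at 24 h and 35.2% of the kept ones, and in the highest at 11 of 27 (40.7%) and 91.5%. At like scores, then, events seen only at 24 h were in each of these lists less often than kept ones. This holds as a description of 1 library per time point.

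**Figure D4:**
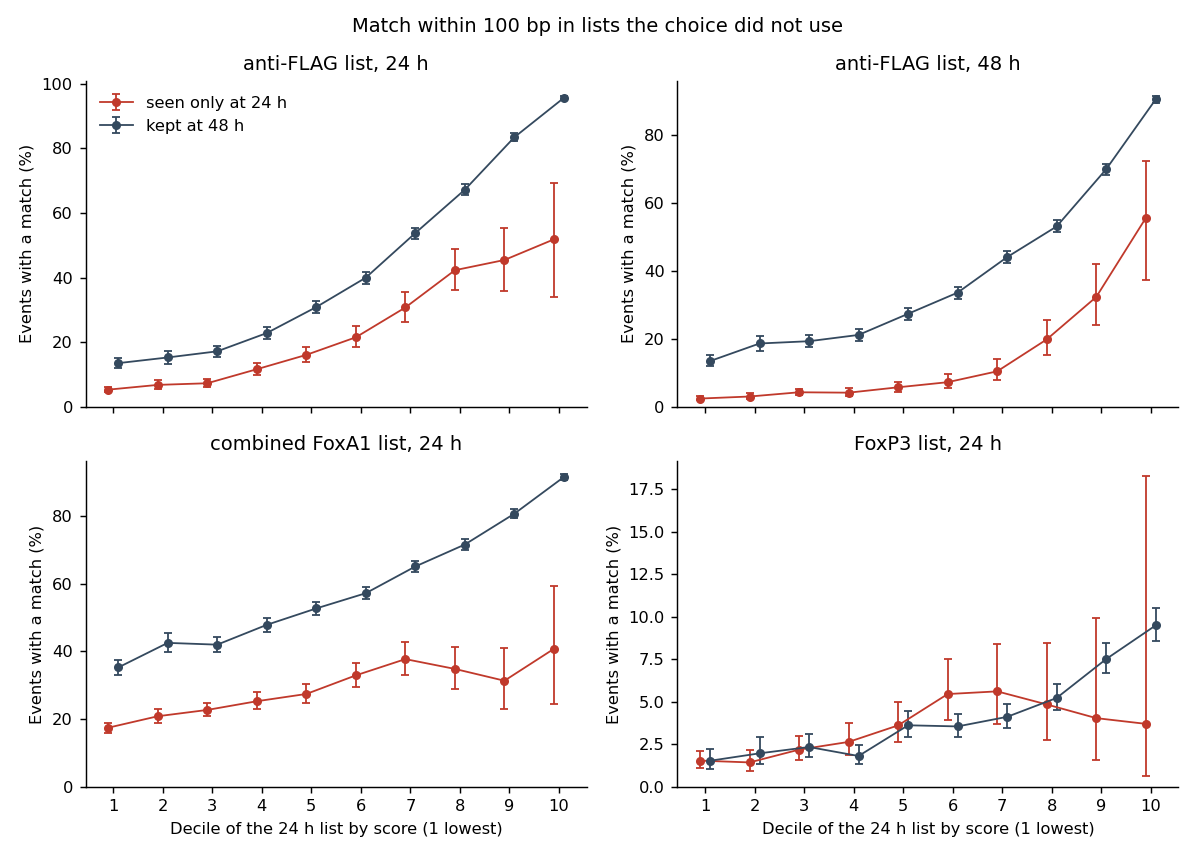
Percent of events with a match within 100 bp in 4 lists that the choice did not use, by decile of the 24 h list by score; red, seen only at 24 h; dark, kept at 48 h; bars, Wilson 95% intervals. Red lies below dark in every decile of the anti-FLAG and combined panels, and the lines cross for FoxP3.

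Among events that did have an anti-FLAG event at 24 h, the anti-FLAG course could be followed to 48 h on its own. An anti-FLAG event at 48 h was there for 229 of the 1052 seen only at 24 h with anti-FoxA1 (21.8%, 19.4 to 24.4%), and for 71.7% of the 12959 kept ones, a difference of -49.9 percentage points (-52.4 to -47.2). The median anti-FLAG score at 24 h was 66 in the first and 118 in the second, and with the kept events weighted to the same anti-FLAG scores their share was 55.7%, leaving a difference of -33.9 (-36.5 to -31.3). Events absent with the first antibody at 48 h were thus less often listed at 48 h with the second as well. Both courses come from the same cell line and labelled times, and whether they share chromatin is not stated. The share was 30.6% of 366 events with another time's event at 101 to 500 bp and 17.1% of 686 farther away.

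The 10 highest anti-FLAG scores at 24 h belonged to events in or nearest to Rgs20 and Gm39128 (both 1000), Clec12b, a lectin receptor (872), 4931408D14Rik (750), Ddx55 (711), Agap1, an Arf regulator (677), Pard3, a cell polarity protein (675), Nfatc2 (593) and Nfatc3 (569), which answer to calcineurin, and Adcy9, an adenylyl cyclase (576). The event nearest to Agap1 lay 147523 bp outside that gene. All 10 had an anti-FoxA1 event of 48 h 102 to 185 bp away, and 8 had an anti-FLAG event of 48 h within 100 bp. The event in Nfatc2 scored 73 at 24 h, with a 48 h event of score 395 at 118 bp, an anti-FLAG score of 593 at 88 bp and 1000 in the combined list at 157 bp. For these 10, then, an anti-FoxA1 position of 48 h was listed just beyond the limit of the rule. Of all 1052 with an anti-FLAG event at 24 h, 686 lay over 500 bp from every other anti-FoxA1 time, with anti-FLAG scores of 44 to 510.

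Other events of one time point alone give the scale of these values. At 12 h, 571 of 8345 events (6.84%) were in no other anti-FoxA1 list, at 48 h 16057 of 41726 (38.5%). Their median scores were 50 and 62, beside 55 for the 24 h set. The combined list, made at 24 h, had an event at 31.7% of the 12 h set (28.0 to 35.6%) and 22.1% of the 48 h set (21.4 to 22.7%), beside 23.5% of the 24 h set. The anti-FLAG list of the same time had one at 1.93% of the 12 h set, 11.5% of the 24 h set and 9.54% of the 48 h set. So the combined list, made at 24 h, matched events of 24 h alone and of 48 h alone in shares that differed by little.

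Other Forkhead factors were listed at few of these places. FoxC1, a factor of mesenchyme, had an event at 42 of them (0.458% against 2.33% of the kept), FoxL2, a factor of the ovary, at 170 (1.85% against 4.24%), and FoxP3, the factor of regulatory T cells, at 234 (2.55%, 2.25 to 2.89%, against 4.71%). Any of the 3 was at 396 (4.32%, 3.92 to 4.75%), against 8.84%. With the kept events weighted by score the difference for any of the 3 was -0.511 percentage points (-1.07 to 0.0508), for FoxC1 -0.405 (-0.612 to -0.198), for FoxL2 -0.613 (-1.002 to -0.223) and for FoxP3 0.117 (-0.300 to 0.535). FoxC1 and FoxL2 thus stayed lower than at all kept events of like scores. Against the 18039 events of 24 and 48 h that were not on an earlier list, FoxP3 was at 2.16%, 1.82% when weighted, a difference of 0.728 (0.319 to 1.14) with the events seen only at 24 h higher. The weighted differences from those events were -0.144 (-0.339 to 0.0507) for FoxC1 and -0.288 (-0.674 to 0.0979) for FoxL2. At like scores, then, the lower share found in the FoxA1 lists was not found in the FoxP3 list.

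Of the 1052 events with an anti-FLAG FoxA1 event at 24 h, 14 also had at least 2 of the other factors. By score they were led by events inside Dcun1d3 and Rexo5 (277), near 1110038F14Rik (210), near Ywhaq, an adaptor that binds phosphorylated proteins (162), inside Ly6g6d (135), near Usp9x, a deubiquitinase of the X chromosome (133), and inside Tango6 (score 121). The event near Usp9x, at base 13206850, had all 3 factors, with scores of 160 for FoxC1 at 26 bp, 176 for FoxL2 at 16 bp and 747 for FoxP3 at 16 bp. There the anti-FLAG list at 24 h had 103 at 22 bp and the combined list 512 at 4 bp, while the nearest 48 h event lay 12523 bp away with anti-FoxA1 and 12474 bp away with anti-FLAG. So this place was listed by 5 lists of 24 h beside the one that chose it, and by neither list of 48 h.

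On the gene map the events seen only at 24 h lay a little less in and at genes. Inside protein-coding genes were 4412 of them (48.1%, 47.1 to 49.1%) against 51.9% of the kept, a difference of -3.77 percentage points (-4.96 to -2.58). At protein-coding gene ends, to a distance of 1 kb, were 427 (4.66%, 4.24 to 5.11%) against 5.03%, a difference of -0.370 (-0.867 to 0.151). Weighted by score this became -1.25 (-1.88 to -0.625), so that the interval no longer held 0. The map gives gene ends and no exons, so exonic and intronic events are not separated here.

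The X chromosome stood out. Of its 617 events at 24 h, 237 were seen only then (38.4%, 34.7 to 42.3%), against 22.2% on chromosome 19 to 27.6% on chromosome 15 among the autosomes. On the Y chromosome it was 12 of 16 (75%, 50.5 to 89.8%). The median score of all 24 h events was 77 on X and 85 to 88 on the autosomes, and the excess stayed with kept events weighted by score, with X holding 2.58% of the events seen only at 24 h and 1.475% of the kept, a difference of 1.11 (0.715 to 1.503). X had 617 events at 24 h and 609 at 48 h, while every autosome had more at 48 h than at 24 h.

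**Figure D5:**
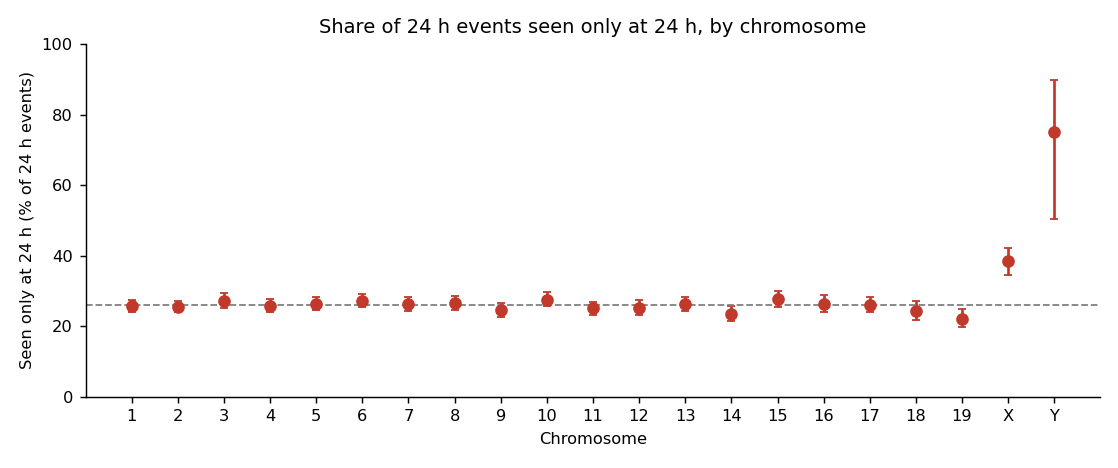
Percent of the 24 h events on each chromosome that were seen only at 24 h, with Wilson 95% intervals; the dashed line is the share in the whole list, 26.1%. Autosomes lie between 22.2% and 27.6%, X at 38.4% and Y, with 16 events, at 75%.

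Of 21887 protein-coding genes, 9312 (42.5%) had an event seen only at 24 h in the gene or within 50 kb, and 16268 (74.3%) had any 24 h event there. The genes with the most were Magi1, a scaffold of cell junctions (14 of its 35 events at 24 h), Dlgap1, a postsynaptic scaffold (13 of 29), Rbfox2, a splicing regulator (11 of 31), Fancc, of DNA crosslink repair (10 of 24), Tcf7l1, which represses Wnt targets in ES cells (10 of 32), Ulk4 (10 of 14) and Ptprg, a receptor phosphatase (10 of 21). Ddx55 (10 of 14), Rilpl1 (10 of 16) and Eif2b1 (9 of 12) shared the run described above. The median score of these events was 52.5 at Magi1, 52 at Dlgap1 and 80.5 at Tcf7l1, and 187.5 at Ddx55. Of the 14 at Magi1 none had an anti-FLAG event at 24 h, and of the 10 at Ddx55 it was 6. Many of these genes are long, and a long gene has more room for events.

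Lists of genes were read against those 42.5% of all genes, and against the 26.1% of all 24 h events that were seen only then. Of 20 pluripotency genes 14 (70%) had such an event, and 45 of the 176 events at 24 h near them (25.6%, 19.7 to 32.5%) were seen only at 24 h, a share near that of the whole list. Prdm14, which helps to hold the naive state, had 8 of 23, with scores of 45 to 169 and 3 of them beside an anti-FLAG event at 24 h. Esrrb, an orphan nuclear receptor of naive cells, had 6 of 25, all inside the gene, and Tbx3, a T-box factor that is also in the endoderm list, had 6 of 15. Nanog, a core factor of the naive state, had 4 of 8, the strongest of score 112 at 329 bp from the nearer end of the gene. Pou5f1, Utf1, Lin28a, Nr0b1, Fgf4 and Dppa3 had none.

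Endoderm regulators, genes of the germ layer FoxA1 is best known for, had such an event at 15 of 20 genes (75%), and 33 of their 96 events (34.4%, 25.6 to 44.3%) were seen only at 24 h. Gata4, a GATA factor of early endoderm, had 4 of 11 with scores up to 62, Gata6 had 3 of 5 with one of 150, and Cxcr4, a chemokine receptor of definitive endoderm, had 4 of 5 with one of 157. Hnf4a, Isl1, Nkx2-1, Onecut1 and Sox7 had none. Of 20 liver genes 11 had one, and 12 of their 50 events (24.0%, 14.3 to 37.4%) were of the set. Apob, the apolipoprotein of low-density particles, had 3 events at 24 h and all 3 were seen only then, with scores of 43 to 139, while Tat, Ttr and Pck1, enzymes and a carrier of liver, had 1 each with scores of 57, 43 and 66. The intervals of both lists held the 26.1% of the whole 24 h list.

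Primed and early differentiation genes had one at 10 of 18, with 11 of their 73 events in the set (15.1%, 8.63 to 25.0%). Mixl1, a factor of the primitive streak, had 2 of 4, and Dnmt3a, Dnmt3b and Wnt3 had 1 each, all of score 43. Signalling feedback genes had one at 8 of 17, with 12 of 80 events (15.0%, 8.79 to 24.4%). Dusp6, the ERK phosphatase, had 3 of 13 with one of score 172, Id4 2 of 5, Spry2 2 of 10 and Smad7 1 of 16. The intervals of both lists ended below 26.1%, on counts of 11 and 12 events.

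Forkhead family genes had one at 22 of 42, with 44 of 187 events (23.5%, 18.0 to 30.1%), led by Foxp1 (5 of 28, highest score 120), Foxp4 (4 of 15, highest 151), Foxn2 (3 of 8) and Foxn3 (3 of 23). Chromatin regulators had one at 16 of 20, with 42 of 161 events (26.1%, 19.9 to 33.4%). Jarid2, a Polycomb partner, had 8 of 27, and Hdac4, a deacetylase, 4 of 9, while Arid1a of the BAF remodeller had 3 of 8 and the remodeller Chd7 3 of 10. Neural regulators had one at 4 of 20 genes, with 5 of 36 events (13.9%, 6.08 to 28.7%), at Notch1 (2 of 4), Meis2, Sox1 and Hes5. A list of long genes, named for neuronal adhesion and synapse though not every member is of that kind, had one at 14 of 20. Of the 131 events near them, 43 were in the set (32.8%, 25.4 to 41.3%). It was led by Macrod2 (7 of 18), Cdh13 (5 of 12), Dmd (5 of 11) and Magi2 (5 of 14, one of score 157). Housekeeping genes had one at 8 of 20, with 12 of 68 events (17.6%, 10.4 to 28.4%), at Ywhaz (4 of 12), Actb (2 of 8), Gapdh (1 of 5) and Ppia (1 of 3) among others. All 10 lists together had one at 117 of 212 genes (55.2%), and the share of events seen only at 24 h ran from 13.9% to 34.4% across them.

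The strongest events with no other time within 500 bp, chosen after the values were seen, were few. Only 4 scored at least 300, 2 in Ddx55 and 2 in Gm39793. Of the 12 highest, 5 had an anti-FLAG event at 24 h, none had one at 48 h, 2 had a combined event and 5 had none of these. One of score 286, at base 67654248 of chromosome 17 and 21525 bp from Lrrc30, had its nearest event of the combined list 31460 bp away and of the anti-FLAG list at 24 h 57098 bp away. One of score 281, 1111 bp from Nupr1l on chromosome 5, had a combined event of score 43 at 3 bp, and one of 261, between Gadd45a and Gng12 on chromosome 6, a combined event of score 174 at 1 bp. One of 241 on chromosome 1, with no protein-coding gene within 1426523 bp, had an anti-FLAG event of score 106 at 9 bp. So the highest scores over 500 bp from every other time divided into ones that other 24 h lists held and ones that they did not. Several of the 12 lay in the runs of Ddx55 and Gm39793, so they were not 12 separate places.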

How the data were processed

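The submitters' processing notes name BWA 0.7.17-r1188, Picard, SAMtools and the build mm10, and the track lines name ChExMix as the caller of events, per the file headers. Caller settings and the way libraries were joined in a combined list were not given in the sources used here. Each deposited event is 1 bp wide and carries a score of unknown scale, between 43 and 1000. Items of the series left out here leave 14 lists.

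Events were read in Python 3.11.15 (pandas 2.3.3, numpy 2.4.6, matplotlib 3.10.9), and an event of another list within 100 bp counted as the same place. Shares carry Wilson and differences Newcombe 95% intervals. Kept events were weighted to the members' deciles of score, with a stratified Wald interval. The functions were tested on simulated data. Genes and promoters were those of GRCm38.p6, the build of the events, with 21887 protein-coding genes. A gene's events were those inside it or within 50 kb. All 212 list symbols matched. Without a genome, motifs were counted only where the 101 bp window lay in a promoter sequence (250 bases before to 50 after a start), a departure from the plan.

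Members and gene lists were chosen with earlier results of these data known. Named were the 12 highest scores, the 10 highest anti-FLAG scores, the 10 genes with the most members, up to 4 genes per list and up to 6 members with at least 2 other factors. Alternatives were other distances, score cuts, list lengths, comparison sets, windows and autosomes alone.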

Additional observations from a re-analysis of the deposited data

How the results depend on the processing

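No paired analysis was possible because each time point had 1 library and each factor 1 combined list. Leaving out a replicate was not possible either. Of the 92 alternatives, 46 were differences from the kept events, and all 46 stayed below 0, 41 with an interval below 0. The rest were shares and counts, which have no sign to reverse. FoxP3 alone was not among the alternatives. Its difference from the kept events was -2.15 percentage points, and 0.117 (-0.300 to 0.535) when weighted by score. Depth is unknown, and intervals cover counting error alone.

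The set numbered 9171. It held 1350 events with scores of 87 or more, the 5 upper deciles, and 27210 with the 48 h list left out of the rule. With a place shared within 50 bp, 200 bp or at the same base, the share with an anti-FLAG event at 24 h was 8.88%, 16.4% and 0.425%, with differences of -35.6, -37.2 and -3.18 percentage points. With one at 48 h it was 3.83%, 8.36% and 0.174% (-35.8, -38.3 and -3.09). With one of the combined list it was 20.0%, 29.1% and 0.840% (-37.2, -36.4 and -2.53). With FoxC1, FoxL2 or FoxP3 it was 3.15%, 5.81% and 0.0981% (-3.74 at 50 bp and -0.139 at the same base).

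In the 5 upper deciles these 4 shares were 29.9%, 13.0%, 34.6% and 7.11%, the share at gene ends 2.74%, inside genes 45.0% and with a motif 28.6%. Differences that moved there were -46.5 for anti-FLAG at 48 h, -1.71 at gene ends, -5.83 inside genes and -33.1 for the motif. That last value rests on 2 of 7 windows, and its interval (-54.8 to 3.37) held 0, unlike that of the main difference. Against events of 24 and 48 h alone the 4 differences were -28.9, -32.1, -31.5 and -0.560. Weighted over score deciles they were -11.8, -17.3, -21.8 and -0.511, with -1.25 at gene ends and -5.40 inside genes.

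Over 500 bp from other times, an alternative added after the data were seen, the anti-FLAG shares were 9.49% at 24 h and 3.40% at 48 h (-41.7 and -41.5). Within 500 bp of a gene end were 2.53%, and within 5 kb 18.99% (-1.36). Inside genes of all types were 57.2%. The causes were not tested. The count of list genes, 117, was 83 within 20 kb and 148 within 100 kb.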
